A study of Mus musculus with 4 samples.

Results

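The genes described here are 8 genes for exercise myokines and a myokine receptor, Il15, Il15ra, Fndc5, Metrnl, Fgf21, Bdnf, Vegfb and Ctf1, chosen by their symbols from the 23282 gene rows measured in gastrocnemius, the large calf muscle, of the mouse. Each of the 8 symbols was found once in each library, and 7 of the 8 had reads. The study crossed treadmill running with cancer in male CDF1 mice, a hybrid strain, and no engineered allele is named for any group. The normal control group, E(−)T(−), neither ran nor received tumor cells, the normal exercise group, E(+)T(−), ran at high intensity every other day, the cancer control group, E(−)T(+), received CT26 murine colorectal cancer cells by the tail vein, and the cancer exercise group, E(+)T(+), had both. Each group is represented by 1 library of 3′ mRNA sequencing (QuantSeq). The labels name postnatal day 28, but the methods describe mice of about that age at purchase and sampled at the end of the experiment, so the age at sampling is unclear. GEO's design text speaks of 10 mice in a group, the results text of the study of a single representative mouse, so whether a library is 1 animal was not settled.

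Myokines are proteins that muscle releases and that act on the muscle itself, on fat, liver, brain, vessels or immune cells. Interleukin 15 is carried to its target cells by its own receptor chain, IL-15Rα, and irisin is cut from the membrane protein FNDC5, whose gene is switched on by the coactivator PGC-1α. Meteorin-like, FGF21, BDNF, VEGF-B and cardiotrophin 1 act through receptors of other families, and these differ in whether muscle fibres or other cells of the tissue make them.

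The libraries held from 10647674 to 13225773 reads, and 14427 to 14830 genes had reads. On the 8 genes fell 3085 reads of normal control and 2923 of normal exercise, against 1828 and 2308 in the cancer libraries without and with exercise. Where 4 values follow each other below, they are in this order. A level is given as log2(normalized read count + 1), and the difference of a pair of libraries is the difference of these log2 values, with a 95% interval of the ratio of scaled reads that covers counting error only. A gene was counted as changed where it differed at least 2-fold and its normalized read count was at least 4 in 1 of the libraries compared. None of the differences has a replicate check among these libraries and no p-value is given, because each group has 1 library. For genes it selected, Il15 among them, the paper reports RT-qPCR in littermates, which is not part of these data. In whole muscle, fewer cells of a type and less RNA per cell cannot be told apart.

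With exercise in tumor-free mice, all 7 genes with reads were lower than in normal control, with a median log2 difference of −0.61 against −0.01 over all genes tested, and they stayed lower under each other scaling computed. Only Il15 and Bdnf fell at least 2-fold, that is 2 of 7, where 21.5% of the 14518 genes tested changed, 9.44% higher and 12.1% lower. With the tumor in mice that did not run, Il15, Il15ra and Fndc5 fell and Bdnf rose, and the median of the 7 was −0.94 against −0.04. These are 4 of 7, in a comparison in which 45.1% of 14818 genes changed, 20.9% higher and 24.2% lower. With exercise in tumor-bearing mice Il15 rose and Bdnf fell, 2 of 7 where 30.6% of 14491 genes changed, 15.6% higher and 15.1% lower, with medians of 0.27 and 0.0050. With the tumor in exercised mice Bdnf rose and Metrnl fell, again 2 of 7, where 30.3% of 14470 genes changed, 13.9% higher and 16.3% lower, with medians of −0.07 and −0.03. Each library enters a pair of these comparisons, so that a value particular to 1 library enters both.

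**Figure D1:**
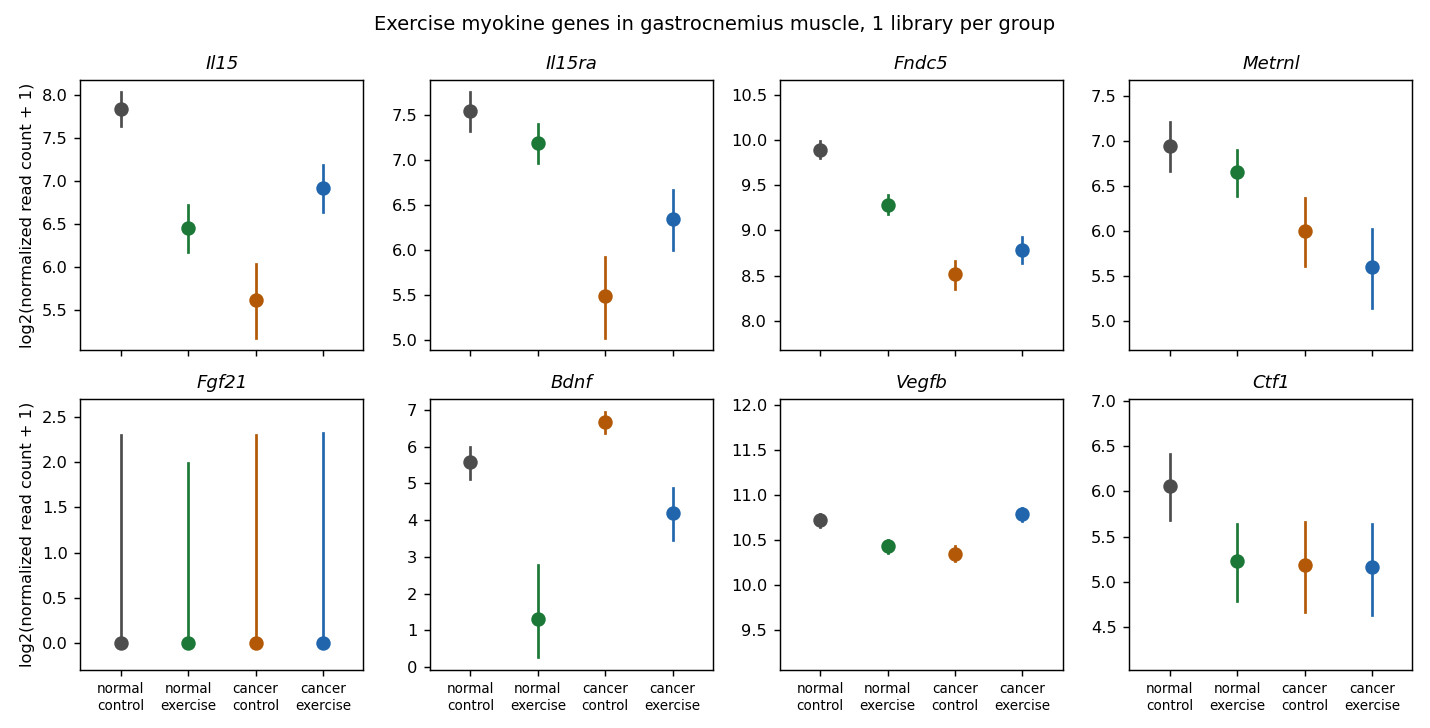
Level of each of the 8 genes in each library, on the vertical axis as log2(normalized read count + 1), with 1 point per group and bars for the 95% Poisson interval of the reads. Normal control is the highest library for Il15, Il15ra, Fndc5, Metrnl and Ctf1, Bdnf is lowest in normal exercise and highest in cancer control, and Fgf21 lies at 0 in every library.

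**Figure D2:**
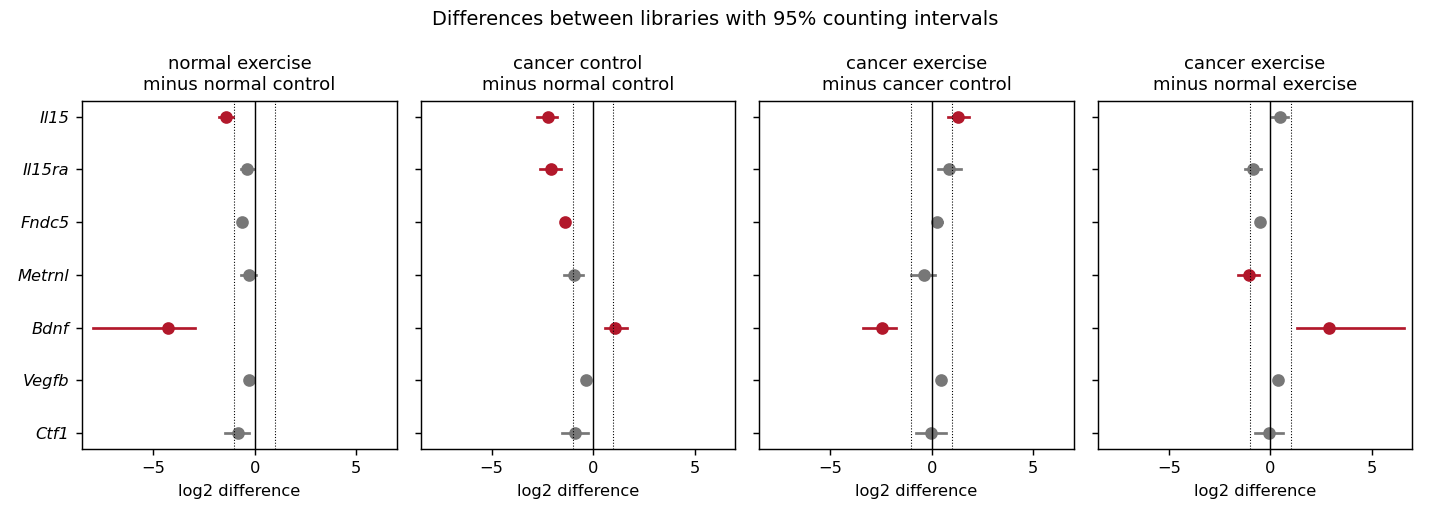
Log2 difference of 7 genes in the 4 comparisons, 1 panel each, with bars for the 95% counting interval and dotted lines at 2-fold. Red points are genes that changed at least 2-fold, and only Il15 and Bdnf are red in both panels for exercise.

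Il15 (ENSMUSG00000031712.10, minus strand, chr8:82331632-82403222 in GRCm38) encodes interleukin 15, a cytokine needed by natural killer cells and memory T cells. Normal control held 215 of its reads and normal exercise 107, against 45 (cancer control) and 111 (cancer exercise). The log2 values were 7.84, 6.45, 5.62 and 6.92 in the same order. Normal control was the highest library, cancer control the lowest, and both exercised libraries lay between them. Exercise went with a fall of Il15 without the tumor, by 1.39 on the log2 scale (interval −1.75 to −1.06), and with a rise of 1.30 (0.81 to 1.85) in its presence. The exercise difference was thus 2.69 higher in tumor-bearing than in tumor-free mice, a contrast of single libraries that was not tested. With the tumor Il15 fell in mice that did not run, at a log2 difference of −2.22 (−2.74 to −1.78), while the exercised libraries differed by 0.47 (0.07 to 0.87), below 2-fold. Between cancer exercise and normal control the log2 difference was −0.92. The paper's discussion speaks of higher Il15 with intensive aerobic exercise. In these libraries that held in tumor-bearing mice and not in tumor-free mice. Il15 is among the genes that the study itself picked on these libraries for a change of at least 2-fold in 3 of the comparisons. The study also placed it among genes whose exercise effects were opposite in tumor-free and tumor-bearing mice. Its passing these rules is therefore not independent evidence. Larger changes were found for 14.5% of the genes tested in tumor-free exercise, 19.2% in the tumor comparison without exercise and 23.1% in tumor-bearing exercise.

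The 4 fat cell markers came in the same order as Il15, with summed normalized read counts of 3635 and 1810 in the tumor-free libraries and of 800 and 1823 in the cancer libraries. All 4 had reads in both libraries of tumor-free mice, while Lep, the leptin gene, was at 0 in both cancer libraries. Without Adipoq the sums were 1696, 1057, 196 and 701, so that the order of the exercised libraries rested on that gene. Macrophage markers, all 7 of them with reads in every library, summed to 1668, 1804, 2316 and 2175, and dendritic cell markers to 36.1, 45.6, 38.6 and 31.4. The macrophage sum in cancer control rested on Cd68, at 1024 there against 92.6 in normal control, and without it the sums were 1575, 1709, 1292 and 1855, lowest in cancer control. Both of the latter cell types are known makers of interleukin 15. The part of any of these cells in the Il15 result was not tested.

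Il15ra (ENSMUSG00000023206.16, plus strand, chr2:11705290-11734317) encodes the receptor chain that presents interleukin 15 to neighbouring cells. Normal control held 175 of its reads and normal exercise 179, against 41 (cancer control) and 74 (cancer exercise), at log2 values of 7.55, 7.19, 5.49 and 6.34. Both tumor-free libraries lay above both tumor-bearing ones, unlike Il15. It fell with the tumor in mice that did not run, at a log2 difference of −2.06 (−2.61 to −1.59), which is close to that of Il15. The remaining differences were −0.35 (−0.67 to −0.05) for exercise without the tumor, 0.85 (0.30 to 1.46) for exercise with it and −0.85 (−1.27 to −0.46) for the tumor in exercised mice, each below 2-fold. The last of these reached −1.0 under total count scaling and then met the threshold.

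The balance of ligand and receptor reads also differed between libraries. QuantSeq gives reads from the 3′ end of a transcript, so that counts do not scale with its length. Whether the 2 genes are captured equally was not tested, so the ratio of reads is compared between libraries and is not a ratio of molecules. There were 1.23 Il15 reads per Il15ra read in normal control (95% interval 1.0 to 1.51) and 0.598 in normal exercise (0.466 to 0.764). In cancer control the ratio was 1.10 (0.703 to 1.72) and in cancer exercise 1.5 (1.11 to 2.04). Receptor reads outnumbered ligand reads in normal exercise alone, and its interval does not overlap those of normal control and cancer exercise.

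The start regions of Il15ra are shown because both of its RefSeq promoter windows hold a repeat that interferon regulatory factors bind, which among the other genes was found in 1 of the 7 windows of Bdnf and in no other. The motif is GAAANNGAA, searched on both strands, and it occurs in 8.56% of all 32851 windows of 250 bases before to 50 after a start. The sequences are RefSeq's, build GRCm38.p6, plus strand, written 5′ to 3′ with the match in capitals. The first holds the reverse complement of the motif, starting at base −149 from the start, and is the stretch chr2:11705043-11705292. The other, chr2:11705731-11705760, surrounds a match that begins 30 bases after another start of the gene.
Il15ra, before the first start: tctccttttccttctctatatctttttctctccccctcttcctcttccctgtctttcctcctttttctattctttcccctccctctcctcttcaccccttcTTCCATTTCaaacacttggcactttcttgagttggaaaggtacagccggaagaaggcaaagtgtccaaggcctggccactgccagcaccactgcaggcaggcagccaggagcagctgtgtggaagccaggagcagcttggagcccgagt
Il15ra, around the match after the other start: aaagcaaaagcGAAAGCGAAtactccttag
A match of letters is no evidence of binding, and Il15 has no entry in the promoter table.

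Of the partners of interleukin 15, Il2rb, the signalling chain shared with interleukin 2, had 9 reads in cancer control and 0 elsewhere. Il2rg, the common γ chain of the receptor, had 21, 15, 30 and 55 reads. It rose with the tumor in exercised mice by 2.22 (1.45 to 3.22), while without exercise the difference was 0.50 (−0.33 to 1.40). Jak3, the kinase bound to that chain, had 16, 23, 41 and 47 reads and rose with the tumor both without exercise, by 1.31 (0.50 to 2.30), and with it, by 1.41 (0.70 to 2.24). Levels of Il2rg and Jak3 were thus higher in both tumor-bearing libraries than in the tumor-free ones, where those of Il15ra were higher. For Il2rg without exercise this lay within counting error. Stat5b, the transcription factor downstream, changed nowhere by 2-fold, with log2 values of 10.51, 10.88, 10.31 and 10.07. T and NK cell markers, 7 of 8 of which had reads somewhere, summed to 3.35, 36.5, 39.4 and 10.8 in normalized read counts, with Cd8a at 0 everywhere and every marker but Gzma at 0 in normal control. Their part in these values was not tested.

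Fndc5 (ENSMUSG00000001334.9, plus strand, chr4:129136999-129144593) encodes the precursor of irisin and is made by muscle fibres. Normal control held 894 of its reads and normal exercise 770, against 340 (cancer control) and 406 (cancer exercise), at log2 values of 9.89, 9.29, 8.51 and 8.78. The libraries fell into the same order as for Il15ra, with both tumor-free libraries above the tumor-bearing ones. Fndc5 fell with the tumor without exercise, at a log2 difference of −1.38 (−1.57 to −1.20). Differences were −0.61 (−0.75 to −0.47) for exercise in tumor-free mice, 0.27 (0.06 to 0.48) for exercise in tumor-bearing mice and −0.50 (−0.68 to −0.33) for the tumor in exercised mice. No comparison showed a rise of Fndc5 by 2-fold with exercise.

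The 8 muscle fibre markers, genes of contraction and of fibre energy use, summed to 1353411 and 1024687 normalized read counts in the tumor-free libraries and to 671788 and 779492 in the cancer libraries, all with reads in every library. This sum had the order of Fndc5 and of Il15ra, also with any 1 of the 8 left out, but its markers did not move as 1. Acta1, Ckm, Mylpf, Pvalb and Actn3 were lower in both cancer libraries than in both tumor-free ones, while Myh1 (7701, 4450, 18990 and 16914) and Tnnt3 were higher there. The part of fibre RNA in the differences of Fndc5 and Il15ra was not tested. Ppargc1a, which encodes PGC-1α, had 483, 482, 299 and 421 reads and changed nowhere by 2-fold. Its log2 differences were −0.39 (−0.58 to −0.21) and 0.51 (0.29 to 0.73) for exercise without and with the tumor, the same signs as those of Fndc5, while with the tumor in exercised mice it was 0.22 (0.03 to 0.41), opposite to Fndc5. Fndc4, the closest relative of Fndc5, had 19, 15, 7 and 23 reads, fell with the tumor by 1.31 on the log2 scale (−2.92 to −0.12) and rose with exercise in tumor-bearing mice by 1.60 (0.47 to 3.2). For the irisin receptor subunit gene Itgav, log2 values were 7.39, 6.54, 6.99 and 7.33, with no change of 2-fold. Adam10, a sheddase of membrane proteins, had log2 values of 8.22, 7.87, 7.55 and 7.12 and did not reach 2-fold in any comparison either.

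Metrnl (ENSMUSG00000039208.15, plus strand, chr11:121701544-121716306) encodes meteorin-like, a hormone of muscle and fat that acts on immune cells. Normal control held 115 of its reads and normal exercise 123, against 59 (cancer control) and 44 (cancer exercise). The log2 values were 6.95, 6.66, 6.0 and 5.61. The tumor-free libraries were above the tumor-bearing ones, and exercise was not accompanied by a change beyond counting error in either state. The exercise differences were −0.29 (−0.67 to 0.08) and −0.40 (−1.0 to 0.18), and their own difference was −0.11, the smallest of the 7 genes. Tumor differences were −0.94 (−1.43 to −0.49) without exercise and −1.05 (−1.60 to −0.56) with it, on either side of the 2-fold threshold. Metrn, the related gene for meteorin, had 240, 133, 60 and 100 reads. It fell with exercise in tumor-free mice, at −1.24 (−1.56 to −0.93), and with the tumor without exercise, at −1.97 (−2.42 to −1.58). Kit, whose product is a receptor of meteorin-like, had 23, 17, 5 and 12 reads and fell with the tumor without exercise at −1.99 (−3.94 to −0.76). With exercise in tumor-bearing mice it was higher by 1.13 (−0.33 to 3.14), within counting error.

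Fgf21 (ENSMUSG00000030827.5, minus strand, chr7:45613886-45615490) encodes a hormone that stressed muscle can release under the control of ATF4. No read was counted for it in any of the 4 libraries. At this depth 3 reads amount to 2.27e-05% of the reads in normal exercise and to 2.82e-05% in cancer control, the deepest and the shallowest library. The upper 95% Poisson limit for 0 reads is somewhat higher, at 3.69 reads. Differences of Fgf21 between the groups that stay below this limit were therefore not detectable. Its regulators were well covered. Atf4 had 4000, 6155, 9040 and 5449 reads and rose with the tumor without exercise by 1.19 (1.13 to 1.24). Ddit3, the gene of the stress factor CHOP, had 431, 1294, 757 and 555 reads and rose with exercise in tumor-free mice by 1.19 (1.04 to 1.36). Ppara, which controls Fgf21 in fasting liver, had 129, 88, 207 and 189 reads and rose with the tumor in exercised mice by 1.51 (1.15 to 1.90). Reads for the 3 regulators thus rose in 1 comparison each while Fgf21 stayed at 0. The coreceptor gene Klb had 22, 15, 6 and 10 reads and fell with the tumor without exercise, at −1.70 (−3.46 to −0.52), and Fgfr1, the receptor, changed nowhere by 2-fold, with log2 values from 9.20 to 9.42.

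The bases before the Fgf21 start are shown because they hold a match to the composite element through which ATF4 and CHOP act on genes of the stress response. The motif searched was TGATGNAA on both strands, which is found in 3.97% of the 32851 promoter windows and, among the other 6 genes with windows, in 1 of the 7 of Bdnf. The RefSeq sequence on the minus strand, chr7:45615491-45615740 in GRCm38.p6, is written 5′ to 3′, and the capitals mark its reverse complement, which begins at base −139 from the start.
Fgf21, before the start: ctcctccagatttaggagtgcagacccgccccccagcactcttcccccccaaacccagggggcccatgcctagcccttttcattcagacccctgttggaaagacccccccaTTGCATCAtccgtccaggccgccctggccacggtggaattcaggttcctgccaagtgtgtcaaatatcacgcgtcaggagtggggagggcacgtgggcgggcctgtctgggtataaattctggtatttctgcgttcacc
No window of Fndc5, Metrnl, Vegfb or Ctf1 held any of the 4 motifs searched, which also included the ATF and CREB site TGACGTCA (1.79% of windows) and the estrogen-related receptor element TCAAGGTCA (0.423%). Absence of these letters from a window of 300 bases bears on no factor.

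Bdnf (ENSMUSG00000048482.14, plus strand, chr2:109674700-109727007) encodes brain-derived neurotrophic factor, a growth factor of nerve cells that contracting muscle also makes. It varied most of the 8 genes, with 44 reads for normal control and 2 for normal exercise, against 94 (cancer control) and 16 (cancer exercise). The log2 values were 5.58, 1.30, 6.67 and 4.2. Both exercised libraries were below both libraries of mice that did not run. Within each state of exercise the tumor-bearing library was the higher. The paper's discussion lists a gene spelled BNDF among those tied to secretion that this muscle expresses during intense exercise. It proposes that they may have a part in suppressing cancer, and gives no direction of change for the gene there. With exercise in tumor-free mice Bdnf fell at a log2 difference of −4.27, and from −4.43 to −3.22 in the other settings. The ratio of scaled reads, which has no pseudocount, was larger, 28.9-fold lower or −4.85 in log2 with an interval of −7.94 to −2.91, which is wide because normal exercise held 2 reads. In tumor-bearing mice the fall with exercise was −2.46, beside a log2 ratio of scaled reads of −2.54 (−3.40 to −1.76). With the tumor Bdnf rose by 1.09 (0.57 to 1.66) in mice that did not run, and in exercised mice by 2.90, from 1.97 to 3.0 in the other settings. The ratio of scaled reads in the latter, again against 2 reads, was 10.7, or 3.42 in log2 (1.33 to 6.58). Only 0.448% of the genes tested changed more in the first of these comparisons, and 1.65% of genes had a larger range over the 4 libraries than the 5.36 of Bdnf. The start of the annotated gene overlaps the start of an antisense gene, Gm45346, which is not listed among the measured genes. The ends of both annotated genes, from which QuantSeq takes its reads, lie outside this overlap. Strand use in the counting is not stated, so reads within the overlap could not be assigned to either gene. Where the counted reads fell was not tested.

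The 5 Schwann cell markers, all with reads in every library, summed to 4036 and 2205 normalized read counts in the tumor-free libraries and to 4152 and 1642 in the cancer libraries. These cells wrap the nerve fibres in muscle, and their sum, like Bdnf, was higher in both libraries of mice that did not run. Mbp and Pmp22 carried this, whereas S100b (644, 196, 191 and 92.1) and Sox10 were higher in the tumor-free libraries. Their part in the Bdnf result was not tested. Among the partners of BDNF, its receptor gene Ntrk2 had 169, 136, 28 and 58 reads. It fell with the tumor without exercise at −2.54 (−3.22 to −2.0), where Bdnf rose, and rose with exercise in tumor-bearing mice by 1.04 (0.39 to 1.77), where Bdnf fell, while in tumor-free exercise both were lower, Ntrk2 at −0.70 (−1.04 to −0.37). Ngfr, the gene of the receptor p75 for all neurotrophins, had 31, 33, 13 and 21 reads and fell with the tumor at −1.18 (−2.30 to −0.27). Furin, which encodes a protease that matures the BDNF precursor, had 284, 600, 1463 and 471 reads, with a rise of 2.37 (2.19 to 2.56) with the tumor and a fall of 1.62 on the log2 scale (−1.77 to −1.47) with exercise in tumor-bearing mice. Both Furin changes have the sign of the Bdnf changes, but in tumor-free exercise, where Bdnf fell, Furin was higher by 0.69 (0.48 to 0.90). Ntf5, the gene of a related neurotrophin, had 32 and 39 reads in the tumor-free libraries and 0 and 3 in cancer control and cancer exercise. Sort1, for a sorting receptor of neurotrophins, had log2 values from 8.33 to 9.18 and changed nowhere by 2-fold.

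Vegfb (ENSMUSG00000024962.13, minus strand, chr19:6982473-6987651) encodes VEGF-B, a growth factor linked to fatty acid handling of muscle and heart rather than to vessel sprouting. It was the most abundant of the 8, with about 1580 reads for normal control and 1697 for normal exercise, against 1216 (cancer control) and 1625 (cancer exercise). The log2 values were 10.72, 10.43, 10.35 and 10.78, the narrowest range of the 7 genes with reads. Its highest and lowest libraries differed by 0.43 in log2 value, and 92.2% of genes had a larger range. Exercise differences were −0.29 (−0.39 to −0.19) without and 0.43 (0.33 to 0.54) with the tumor, opposite in sign and below 2-fold. The first of these was −0.13 under total count scaling. Differences with the tumor were −0.37 (−0.48 to −0.26) without and 0.35 (0.26 to 0.45) with exercise. The receptor genes Flt1, with log2 values of 9.34, 9.93, 10.0 and 9.79, and Nrp1, with 11.26, 11.11, 10.38 and 11.29, changed nowhere by 2-fold, nor did Esrra, an activator of oxidative genes, with 9.75, 9.33, 9.17 and 9.89. Its relatives moved more. Vegfa, the main inducer of vessel growth, had 1383, 1454, 832 and 1775 reads and rose with exercise in tumor-bearing mice by 1.11 (0.99 to 1.23). Figf, the gene of VEGF-D, had 93, 113, 572 and 445 reads and rose with the tumor without exercise, by 2.62 (2.31 to 2.96), and with it, by 2.39 (2.09 to 2.71). Pgf, for placental growth factor, a ligand of the same receptor as VEGF-B, had 65, 23, 67 and 130 reads, fell with exercise in tumor-free mice at −1.85 (−2.64 to −1.18) and rose with the tumor in exercised mice by 2.86 (2.27 to 3.62). The 6 endothelial markers summed to 2469, 3185, 2533 and 2718 normalized read counts, all with reads in every library. Pecam1 was highest and Kdr and Tek were lowest in the cancer libraries, and their part in these values was not tested.

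Ctf1 (ENSMUSG00000042340.6, plus strand, chr7:127712736-127718192) encodes cardiotrophin 1, a cytokine of the interleukin 6 family that acts on heart and muscle. Normal control held 62 of its reads and normal exercise 45, against 33 (cancer control) and 32 (cancer exercise), at log2 values of 6.06, 5.23, 5.18 and 5.16. Normal control stood above the others, which lay within counting error of each other in the comparisons made between them. Exercise differed by −0.84 (−1.44 to −0.28) in tumor-free mice and the tumor by −0.88 (−1.56 to −0.27) in mice that did not run, both below 2-fold. Adding exercise to the tumor gave −0.03 (−0.78 to 0.72) and adding the tumor to exercise −0.07 (−0.78 to 0.61), intervals that span from a clear fall to a clear rise. The end of the annotated gene overlaps Ctf2 on the other strand, which had 0 reads in every library. The receptor genes Lifr, with log2 values from 9.45 to 9.71, and Il6st, with 8.96, 9.62, 9.71 and 9.56, changed nowhere by 2-fold. Of the related cytokines, Cntf, made by Schwann cells, had 155, 93, 238 and 97 reads and fell with exercise at −1.12 (−1.52 to −0.75) without and −1.27 (−1.63 to −0.93) with the tumor. Both falls stood beside the lower Schwann cell sum of the exercised libraries, which was not tested as their source. Clcf1, for another ligand of the family, had 4, 3, 29 and 12 reads. It rose with the tumor by 2.59 (1.36 to 4.84) without exercise and by 2.09 (0.53 to 4.88) with it. With exercise in tumor-bearing mice it fell at −1.19 (−2.36 to −0.24).

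**Figure D3:**
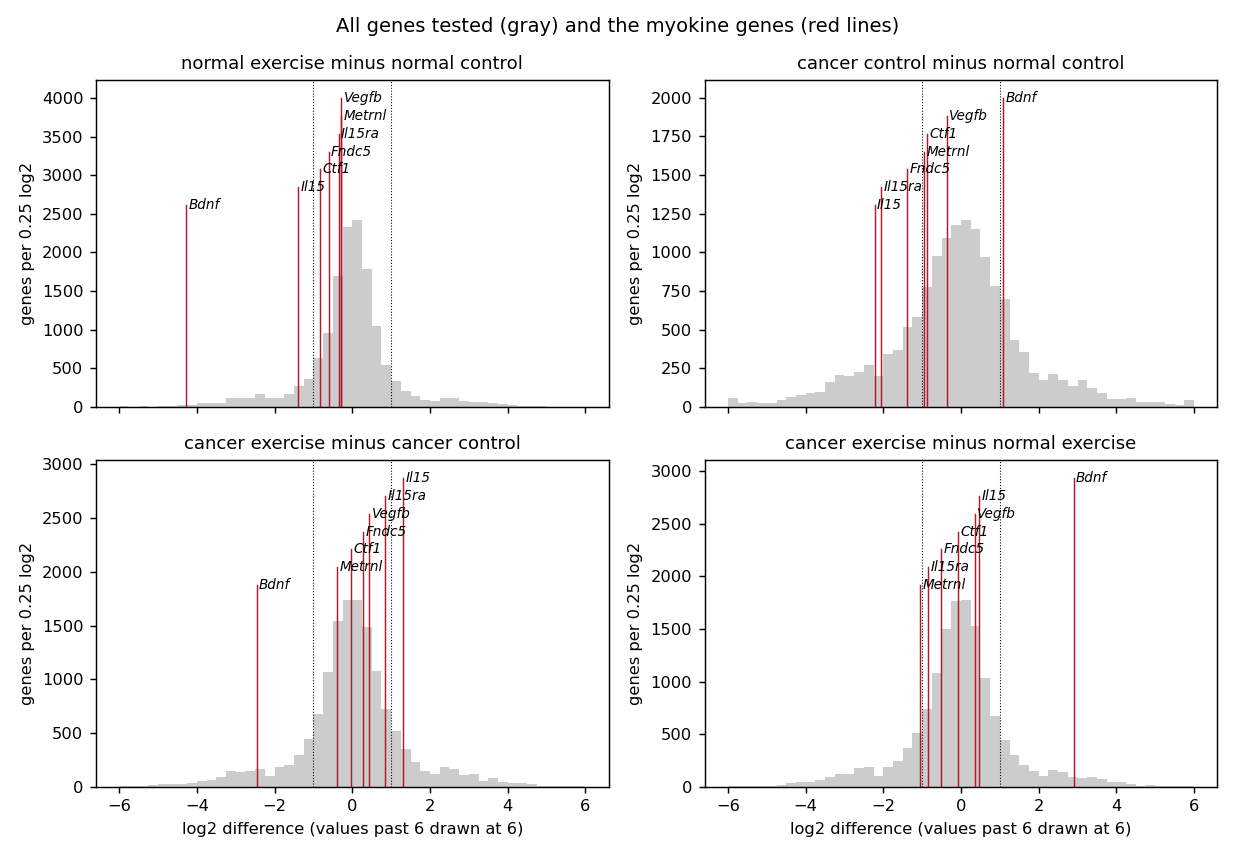
Histograms of the log2 differences of all genes tested, 1 panel per comparison, with the 7 myokine genes as red lines and dotted lines at 2-fold (the height of a red line has no meaning). Most red lines lie within the bulk of the genes, while Bdnf lies in the tail in tumor-free exercise, where 0.448% of genes changed more.

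The 7 genes did not share a single pattern. The profile of a gene was compared with that of others as the root mean square difference of log2 values centred on each gene's mean over 4 libraries, among the 12055 genes whose mean normalized read count reached 16. Fndc5 and Metrnl were the closest pair of the 7, at 0.26, followed by Fndc5 and Ctf1 at 0.27 and Il15ra and Fndc5 at 0.34. Il15 and its receptor chain stood 0.49 apart. Bdnf was at least 1.93 from each of the others, the distance to Ctf1.

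Genes within a fixed log2 window of the profile were many for Vegfb and few for Il15 and Bdnf. Such a count depends on the range of the gene, which was 0.43 for Vegfb, 2.22 for Il15 and 5.36 for Bdnf. It therefore does not separate a small range from a common shape of profile. Within 0.25 in every library there were 682 genes for Vegfb, or 5.66% of those compared, 183 for Fndc5, 140 for Ctf1, 120 for Metrnl, 91 for Il15ra, 8 for Il15 and 0 for Bdnf. The closest genes to Il15 were Meis3 at 0.064, Helt at 0.096 and Fam174b at 0.12, with 8, 8 and 19 reads in cancer control. For Il15ra they were Samd9l at 0.046, Ttll5 at 0.049 and Rnf170 at 0.057. Plagl1, Ifi27 and 2610002M06Rik came closest to Fndc5, at distances from 0.029 to 0.040. To Metrnl these were Oxr1, Antxr1 and Hspg2, from 0.021 to 0.030. Pdha1, Dock1 and Mrpl30 were nearest to Vegfb, from 0.014 to 0.016, and Tyk2, Tstd3 and Pja1 to Ctf1, from 0.032 to 0.057. The nearest to Bdnf, Prc1, Vat1l and Serpina3k, were 0.23, 0.24 and 0.28 away, with 1, 1 and 5 reads in normal exercise. The distances take no account of counting error, which is large at so few reads, so the ranking of such genes is uncertain. With 4 points per profile these distances describe the libraries and say nothing of shared control.

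As a list, the 40 receptors, relatives and regulators of the myokines moved in both directions. In tumor-free exercise 2 rose and 3 fell of 36 that met the minimum, and with the tumor without exercise 7 rose and 7 fell of 37. These are 13.9% and 37.8%, below the 21.5% and 45.1% of all genes tested. In tumor-bearing exercise 4 rose and 5 fell of 36, and with the tumor in exercised mice 6 rose and 2 fell of 36, or 25% and 22.2% beside 30.6% and 30.3%. The list thus changed no more often than all genes. The medians were −0.28, −0.12, −0.03 and 0.04, beside −0.01, −0.04, 0.0050 and −0.03 over all genes tested. The last of them turned to −0.11 under total count scaling, where that of all genes was −0.19. By axis, the tumor without exercise went with 3 falls and 1 rise among the 7 partners of BDNF and with 2 falls among the 2 of meteorin-like. Among the 6 of interleukin 15 there were 2 rises, 1 of them Il2rb, at 9 reads against 0. For irisin 1 of 5 fell, for FGF21 1 of 5 rose and 1 fell, and for VEGF-B 1 of 7 rose. For cardiotrophin 2 rose of the 5 past the minimum.

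**Figure D4:**
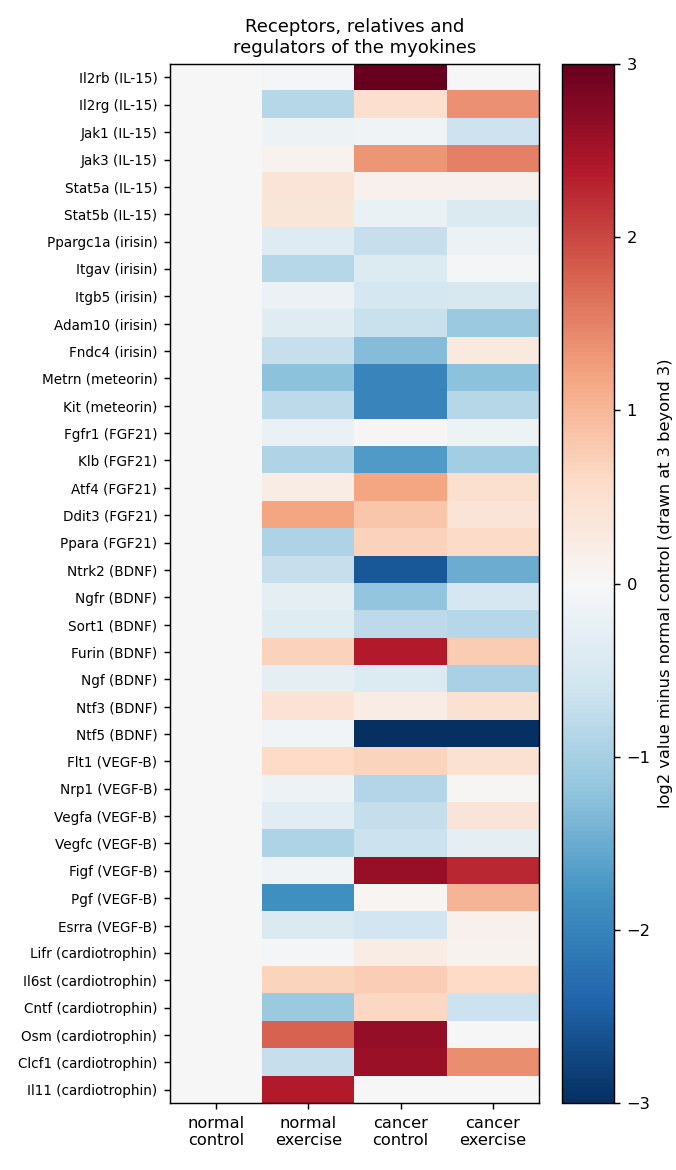
Heat map of the receptors, relatives and regulators with their axis in brackets, for the 38 of 40 genes that met the minimum of 4 in some library. Color is the log2 value minus that of normal control, drawn at 3 beyond that. Ntrk2 is lowest in cancer control and Figf is high in both tumor-bearing libraries.

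The 28 other secreted factors of muscle, of which 26 had reads, fell more often than they rose in each comparison, also under the 3 other scalings tried. In tumor-free exercise 4 rose and 9 fell of 25 past the minimum, with a median of −0.64, and with the tumor without exercise 3 rose and 12 fell of 25, with a median of −0.99. That last median is −0.94 with genes of fewer than 3 reads set to 3 reads. In tumor-bearing exercise 2 rose and 5 fell of 23, although the median was 0.12, and with the tumor in exercised mice 3 rose and 8 fell of 25, with a median of −0.48. The shares changed were 52.0%, 60.0%, 30.4% and 44.0%, beside 21.5%, 45.1%, 30.6% and 30.3% of all genes tested, whose medians were −0.01, −0.04, 0.0050 and −0.03. The list was chosen with earlier results of these data known, so these shares are not independent evidence. It holds genes that fibroblasts express strongly, Dcn and Sparc among them, and their part in these counts was not tested. Ostn, the gene of the muscle hormone musclin, had 872 and 814 reads in the tumor-free libraries but 13 and 14 in the cancer libraries. Its log2 differences were −5.95 (−6.97 to −5.28) for the tumor without and −5.35 (−6.32 to −4.69) with exercise, larger than the tumor difference of any of the 8 genes. Gdf11, for a relative of myostatin, had 34, 28, 0 and 1 reads, and Ptn, for the growth factor pleiotrophin, 39, 10, 3 and 0.

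**Figure D5:**
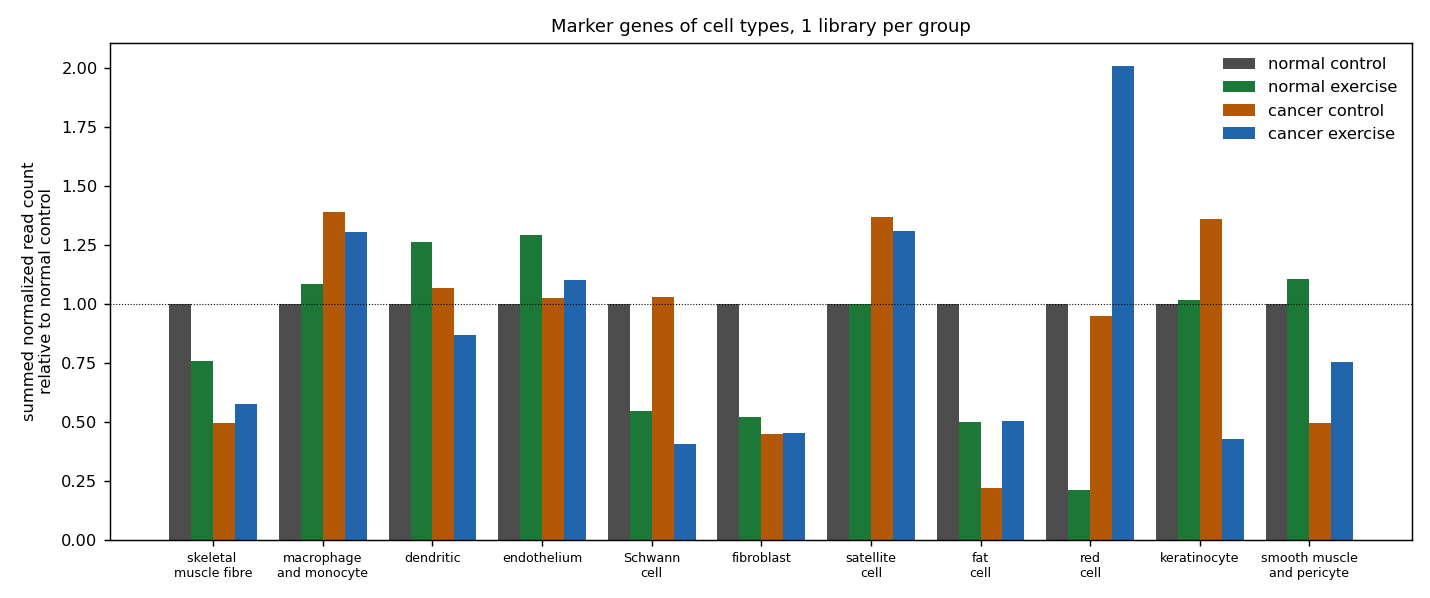
Summed normalized read count of cell type markers in each library, as bars relative to normal control (dotted line at 1), so that a bar mostly follows the most abundant markers of its list. T and NK cell markers, which summed to 3.35 in normal control, are left out; muscle fibre markers are lowest in cancer control, fat cell markers are highest in normal control, and Schwann cell markers are lower in both exercised libraries.

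The label of the tissue was borne out by the markers, since those of muscle fibres exceeded those of every other cell type in each library. Other cell types differed between the libraries in ways that were not tested as sources of the values above. Fibroblast markers summed to 81250 in normal control and from 36333 to 42184 in the others, most of it Dcn, and without Dcn to 23362, 4753, 969 and 2144. Of the 6, 4 fell at least 2-fold in tumor-free exercise and with the tumor without exercise, 4 rose in tumor-bearing exercise and 4 fell with the tumor in exercised mice. Without Dcn this sum too had the order of Fndc5 and Il15ra. Schwann, fat and muscle fibre markers were given above, and red cell markers lay between 48923 (normal exercise) and 464701 (cancer exercise). Smooth muscle markers lay between 783 (cancer control) and 1756 (normal exercise) and satellite cell markers from 216 to 297, the latter mostly Cdh15. Pax7, the defining gene of satellite cells, had 23 and 27 reads in the tumor-free libraries and 2 and 0 in the cancer libraries, and without Cdh15 the sums were 99.9, 52.6, 67.5 and 53.1. Of the 4 keratinocyte markers, Krt5 and Krt1 had 20 and 7 reads in cancer control and 0 elsewhere, while the list summed to between 82.4 and 262.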

How the data were processed

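RNA of gastrocnemius muscle was sequenced from the 3′ end with QuantSeq in 4 libraries, 1 per group, and groups were taken from the sample titles. According to the methods and the submitters' processing notes, the authors aligned reads with Bowtie2 to mm10, took gene counts from Bedtools coverage and put them through the quantile adjustment of edgeR. Versions and the handling of strand are not given in the sources used here. Each deposited value is a log2(normalized read count + 1), given for 23282 gene rows, of which 79 share a symbol with another row (none of the 8 genes). Whole reads were rebuilt from these values in Python 3.11.15 (numpy 2.4.6, scipy 1.17.1, pandas 2.3.3) by a model of the adjustment with 1 scaling factor per library and a dispersion of 0.339, which was tested on simulated data. All deposited log2 values came out at a whole number of reads within 0.0006, and from 94.9% to 96.2% of them in a library fitted only 1 count, Vegfb in normal control not being among them.

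The unit is log2 and there are no replicates, so no count test was run. Differences of log2 values were taken as reported, with a pseudocount of 1, which understates the change of low genes. Intervals are 95% exact Poisson (levels) and Clopper-Pearson (ratios) intervals of rebuilt reads. They cover counting error only, since each group has 1 library. No source names molecular identifiers, so copies of 1 molecule may have been counted as separate reads. The intervals may then be too narrow even for counting error. The thresholds of 2-fold and a normalized read count of 4 are the study's own. The genes, gene lists, markers and motifs were chosen with earlier results of these data known. Genes named were all 8 members, the 3 of most similar profile to each member with reads, and from each axis or list up to 3 with the largest difference and at least 16 normalized reads in 1 library, with the direct receptors and regulators. Coordinates are from GENCODE M21 (GRCm38, the assembly of mm10). Promoter windows are from RefSeq, where 7 of the 8 genes matched in 14 windows. Alternatives covered scaling, pseudocount, minimum, fold threshold and depth, 10 settings in all. A marker gene is not reported here, and its list is given without it.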

Additional observations from a re-analysis of the deposited data

Results flagged for a closer look

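The exercise difference of Il15 was negative in tumor-free mice (−1.39) and positive in tumor-bearing mice (1.30), which sets the effects 2.69 apart on the log2 scale. It stood out because the libraries of the 2 states moved in opposite directions, each by at least 2-fold. The paper had already placed Il15 among genes with opposite exercise effects in this muscle, from these same libraries. The pattern is therefore not independent evidence. That contrast was not tested, because each combination of exercise and tumor has 1 library. In every one of the alternative settings computed for it, the first value lay between −1.40 and −1.23 and the second between 1.22 and 1.32.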

How the results depend on the processing

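No paired analysis was possible because each group has 1 library, and for the same reason no library could be left out. Of the 10 other settings, 4 change only which genes are counted. Under the remaining 6, 162 of 168 differences of the 7 genes with reads stayed within the counting interval, 6 left it and 0 changed sign. Requiring a normalized read count of 4 in both libraries left 1 changed gene in place of 2 in tumor-free exercise and 1 in place of 2 for the tumor with exercise, because Bdnf had 2 reads in normal exercise. A 4-fold threshold left 1 changed gene in tumor-free exercise, 2 with the tumor without exercise, 1 in tumor-bearing exercise and 1 with the tumor in exercised mice. Total count scaling added Il15ra to the genes lower with the tumor in exercised mice (2 lower) and moved the median of all genes to 0.15 in tumor-free exercise and −0.19 with the tumor in exercised mice. Under it and after thinning reads, Fndc5 in tumor-free exercise came to −0.45 and −0.43 and Vegfb to −0.13 and −0.13, while Vegfb with the tumor in exercised mice came to 0.20 and 0.22. The Bdnf differences that rest on 2 reads ranged from −4.43 to −3.22 and from 1.97 to 3.0. Depth limits Fgf21 most, which had no read in any library, and then Bdnf, Ctf1 and Metrnl.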
